A study of Mus musculus with 12 samples.

Results

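The genes described here are those that build and run the contractile apparatus of smooth muscle, followed through stomach RNA of mice with and without carbonic anhydrase IX, the acid-base enzyme encoded by Car9. The list was set by gene name and held 31 genes, and the array named 19406 genes in all. A gene was counted as measured where the platform table gave its symbol to a probe, which left 30 genes with 66 of the 46643 probes on the array. Myl9, a regulatory light chain of smooth muscle myosin, had no probe under its symbol and was not analysed. Each of the 30 genes had at least 1 probe among the 20751 that were tested, so that 48 of the 66 probes entered the tests, and the brightest tested probe stood for its gene. The samples came from 6 Car9-/- mice, carrying a targeted disruption of Car9, and 6 wild-type mice, all C57BL/6, with 3 males and 3 females in each genotype. Car9-/- mice were 10 to 12 months old and wild-type mice 8 to 12 months old, and the mean age was 11 months in both groups. Each RNA came from the stomach of 1 mouse, by the study's methods from the body of the organ, and was hybridised to 1 array. Markers of forestomach epithelium were high in 7 of the specimens and those of pancreas in 2, tissues that the body of the stomach alone would lack.

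The wall of the stomach body carries layers of smooth muscle outside the glandular mucosa, and thinner strands of it, the muscularis mucosae, lie beneath the glands. Contraction starts when calcium and calmodulin activate myosin light chain kinase, which phosphorylates myosin and lets it pull on actin filaments anchored in dense bodies and in plaques at the membrane. A phosphatase reverses the step. Most genes of this apparatus are switched on together by serum response factor (SRF) and its partner myocardin, which act on a short DNA element called the CArG box.

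The promoters of the listed genes were searched for this element because it is the sequence feature by which the family is best known. RefSeq sequence of mouse build GRCm38.p6 was read over the 250 bases before each gene's start. The search took the CArG box with all 6 inner bases A or T, and a CArG-like form with 1 inner G or C. Both patterns read the same on either strand, so a single pass covered both strands, and a stretch was counted under 1 form only. A promoter sequence was held for 27 of the 31 genes, so that Actg2, Myh11, Tagln and Myocd were not searched. Exact boxes were found in 3 of them (11.1%), Ldb3, Myl9 and Vcl, and in 439 of 27025 genes overall (1.62%). Exact or CArG-like boxes were found in 6 of 27 (22.2%) and in 2643 of all genes (9.78%). Of the measured genes with a box, the following are shown, 5′ to 3′ on the strand of the gene, with the box in capitals. The first 3 belong to genes with a probe that fell in Car9-/- stomach, and the other 3 to genes whose probes did not pass.
Acta2, chr19:34255423-34255482, minus strand, box 84 to 75 bases before the start: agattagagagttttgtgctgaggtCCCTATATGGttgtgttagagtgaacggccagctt
Acta2, chr19:34255374-34255432, minus strand, box 34 to 25 bases before the start: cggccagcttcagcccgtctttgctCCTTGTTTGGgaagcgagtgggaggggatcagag
Synm, chr7:67759947-67759992, minus strand, box 239 to 230 bases before the start: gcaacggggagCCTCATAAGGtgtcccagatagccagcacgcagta
Hspb6, chr7:30553051-30553088, plus strand, box 247 to 238 bases before the start: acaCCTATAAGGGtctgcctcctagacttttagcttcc
Ldb3, chr14:34588682-34588741, minus strand, box 35 to 26 bases before the start: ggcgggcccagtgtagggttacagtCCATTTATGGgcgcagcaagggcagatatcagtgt
Vcl, chr14:20929148-20929205, plus strand, box 227 to 218 bases before the start: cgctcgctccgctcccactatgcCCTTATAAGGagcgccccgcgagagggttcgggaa
The exact box therefore stood in front of Vcl and Ldb3, whose log2 fold changes were 0.08 and -0.02. The CArG-like form stood in front of Acta2, Synm and Hspb6. On the brightest probe Synm passed, while Acta2 (-0.21, limma adjusted p = 0.119) and Hspb6 (-0.70, limma adjusted p = 0.155) did not. Acta2 passed on a dimmer probe only. Cav1, Tpm2 and Pln, which also fell on their brightest probes, had neither form in the bases searched. Ldb3 was detected on 4 of the 12 arrays. A match describes the letters of the window and does not show that SRF binds there.

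The arrays detected 18141 to 20276 probes each (detection p under 0.01), and any pair of arrays correlated at 0.9604 to 0.9926. Car9 was lower in every Car9-/- mouse than in every wild-type mouse on both of its probes, with log2 signals of 7.74 to 8.14 against 9.43 to 9.79 on the brighter one. The brightest probes of the parietal cell gene Atp4a and the pit cell gene Gkn1 exceeded 14 on the log2 scale in all 12 stomachs. Markers of stratified squamous epithelium, which lines the forestomach, were high in some specimens and low in others: the mean centred log2 signal of the 10 squamous genes was 0.66 to 2.96 in Car9-/- mice 2, 3, 4 and 5 and 0.87 to 3.12 in wild-type mice 1, 2 and 3, against -2.40 and -2.38 in Car9-/- mice 1 and 6 and -2.84 to -2.77 in wild-type mice 4, 5 and 6. Exocrine pancreas genes were highest in wild-type mice 4 and 6, at 3.45 and 3.16 on the same centred scale over 10 genes. Of the 20751 tested probes, 10.6% passed the genotype test (limma, adjusted p under 0.05).

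Smooth muscle RNA was abundant in every specimen and tended to be lower in Car9-/- stomach. On each array the brightest probe of Acta2, smooth muscle alpha-actin, ranked between 28 and 107 among all probes, and that of Actg2, enteric gamma-actin, between 23 and 245. Of the 30 genes, 4 fell (Cav1, Tpm2, Synm and Pln), none rose and 26 did not pass the test (limma, adjusted p under 0.05), where 5.25% of all tested probes passed as lower and 5.34% as higher. At an unadjusted limma p under 0.05, 17 of the 30 were lower and 0 higher, where 14.2% of all probes were lower and 13.2% higher. The log2 fold change was negative for 28 genes and positive for Vcl and Actn1, where it was negative for 50.1% of all probes. Its median was -0.43 over the 30 genes and -0.000681 over all probes. With arrays scaled to a common median it was negative for 25 genes. The median of all probes was then 0.113, so the 50.1% does not apply to that count. In these bulk samples, fewer muscle cells in a specimen and less RNA in each muscle cell cannot be told apart.

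**Figure D1:**
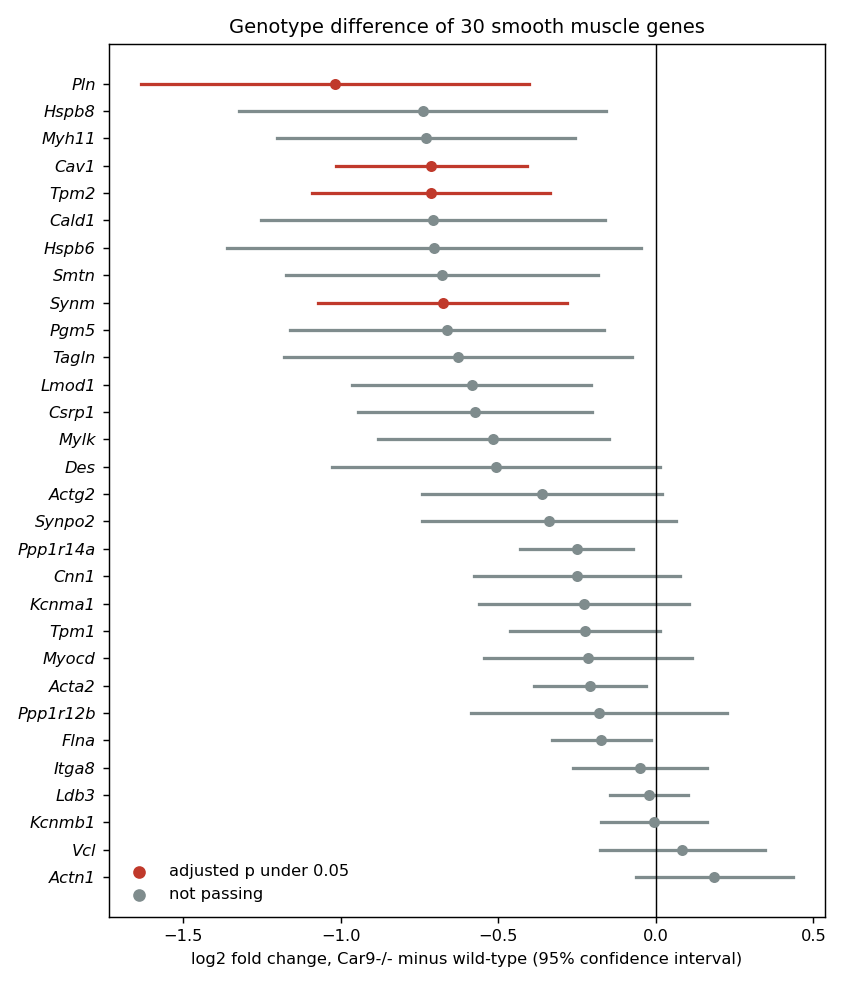
Log2 fold change of the 30 measured smooth muscle genes, Car9-/- minus wild-type (x axis), 1 row per gene; points are limma estimates from 6 mice per genotype and lines their 95% confidence intervals, red where the adjusted p was under 0.05. The estimates run from -1.02 for Pln to 0.18 for Actn1, and 28 of the 30 lie left of 0.

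The count of 4 depended on single mice. It was 10 without wild-type mouse 4, where 3.23% of all probes were lower, and 9 without wild-type mice 4 and 6, where 2.44% were. It was 2 without Car9-/- mouse 1 and 2 without Car9-/- mouse 4, where 2.81% and 2.66% of all probes were lower. The 10 and the 9 thus stood beside a smaller share of all probes than in the full set (5.25%), whereas the median log2 fold change stayed between -0.51 and -0.33 with each mouse left out.

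The genes of the contractile filaments, actin and myosin, did not pass on their brightest probes. Acta2 gave log2 signals of 14.51, 14.83 and 15.02 (lowest, median and highest) in Car9-/- stomach, against 14.89, 15.04 and 15.13 in wild-type stomach. The ranges overlapped and the log2 fold change of -0.21 (SE 0.08) had an adjusted p of 0.119. Acta2 had 3 further tested probes, and these were dimmer. One of them fell in Car9-/- stomach, averaging 10.64 ± 0.41 against 11.49 ± 0.48 in wild-type stomach (SD, n = 6 each; log2 fold change -0.85, SE 0.23, limma adjusted p = 0.0356). The other 2 stood at -0.94 and -0.28 (adjusted p = 0.140 and 0.0829). The 4 probes of Acta2 thus shared a sign but not a call or a size, and the brightest one lay near the top of the array's scale.

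Actg2, the actin isoform most typical of gut muscle, gave 13.69, 14.46 and 14.77 in Car9-/- stomach, against 14.49, 14.66 and 15.18 in wild-type stomach. Its log2 fold change was -0.36 (SE 0.18, adjusted p = 0.203), with Car9-/- mouse 1 lowest and wild-type mouse 1 highest. Myh11, the heavy chain of smooth muscle myosin, gave 11.56, 12.20 and 12.56 in Car9-/- stomach, against 12.29, 12.84 and 13.66 in wild-type stomach. The difference of -0.73 (SE 0.22) was just short of the threshold at an adjusted p of 0.0513, and the ranges overlapped.

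Mylk encodes the kinase that phosphorylates the myosin light chain. Its brightest probe gave 13.22, 13.75 and 14.03 in Car9-/- stomach, against 13.69, 14.24 and 14.49 in wild-type stomach, a log2 fold change of -0.52 (SE 0.17, adjusted p = 0.0706). A second probe fell, at a mean of 12.26 in Car9-/- stomach against 13.01 in wild-type stomach (log2 fold change -0.75, SE 0.20, limma adjusted p = 0.0328), and the third gave -0.81 (adjusted p = 0.0518). The phosphatase side was dimmer: Ppp1r12b, a myosin-targeting subunit of the phosphatase, had a log2 fold change of -0.18 (adjusted p = 0.568), and Ppp1r14a, an inhibitor of that phosphatase also known as CPI-17, had -0.25 (adjusted p = 0.0725).

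Among proteins bound along the actin filament, the beta-tropomyosin gene Tpm2 stood out. Tpm2 gave 12.70, 13.31 and 13.47 in Car9-/- stomach, against 13.44, 13.90 and 14.50 in wild-type stomach. It averaged 13.23 ± 0.28 in Car9-/- mice and 13.95 ± 0.38 in wild-type mice (SD, n = 6 each), and fell 1.64-fold (log2 fold change -0.71, SE 0.17, limma adjusted p = 0.0236). The ranges met only at their edge, where Car9-/- mouse 3 at 13.47 exceeded wild-type mouse 4 at 13.44. Tpm1, the alpha-tropomyosin gene, had -0.22 (adjusted p = 0.209).

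Cald1, encoding caldesmon, which restrains actin-activated myosin, had -0.71 (SE 0.25, adjusted p = 0.0921), and its 2 other tested probes had -0.49 and -0.47. Cnn1, encoding calponin, another brake on the filament, gave 6.48, 6.83 and 7.19 in Car9-/- stomach, against 6.78, 7.02 and 7.62 in wild-type stomach (log2 fold change -0.25, SE 0.15, adjusted p = 0.305). The signal of Cnn1 was low and its groups overlapped widely.

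Tagln, encoding the actin cross-linker transgelin, gave 9.18, 9.92 and 10.25 in Car9-/- stomach, against 9.96, 10.20 and 11.29 in wild-type stomach (log2 fold change -0.63, SE 0.26, adjusted p = 0.133). Smtn, encoding smoothelin of fully differentiated muscle, gave 10.52, 10.99 and 11.32 in Car9-/- stomach, against 10.85, 11.49 and 12.20 in wild-type stomach (log2 fold change -0.68, SE 0.23, adjusted p = 0.0770). Lmod1, encoding the actin nucleator leiomodin, gave 8.05, 8.57 and 8.71 in Car9-/- stomach, against 8.45, 9.06 and 9.55 in wild-type stomach (log2 fold change -0.58, SE 0.18, adjusted p = 0.0518). All 3 overlapped between genotypes and missed the threshold. Csrp1, a LIM protein of the actin cytoskeleton, was similarly placed at -0.57 (SE 0.17, adjusted p = 0.0510).

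**Figure D2:**
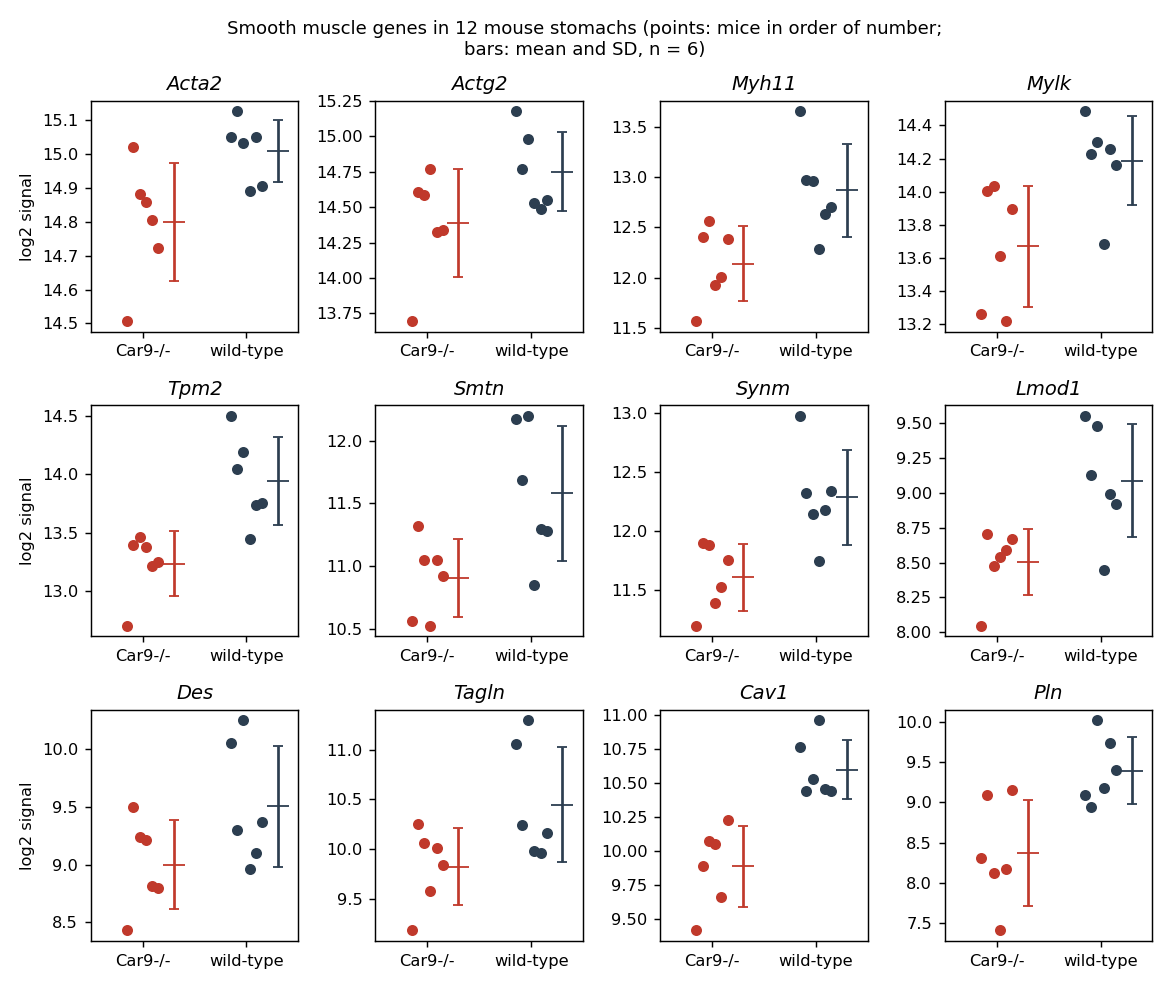
Log2 signal (y axis) of selected smooth muscle genes in each mouse, with Car9-/- mice left and wild-type mice right in each panel; points are single mice in order of number, and bars give the mean and SD of 6 mice. On the brightest probes shown, Cav1 is the gene whose 6 Car9-/- values all lie below the 6 wild-type values. Its highest value in Car9-/- mice is 10.23 and its lowest in wild-type mice 10.44.

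The intermediate filaments tie dense bodies to each other and to the membrane. Synm, encoding synemin, a partner of desmin, gave 11.20, 11.64 and 11.90 in Car9-/- stomach, against 11.75, 12.25 and 12.98 in wild-type stomach. It averaged 11.61 ± 0.28 in Car9-/- mice and 12.29 ± 0.40 in wild-type mice (SD, n = 6 each), and fell 1.60-fold (log2 fold change -0.68, SE 0.18, limma adjusted p = 0.0340). A second Synm probe also fell (-0.74, SE 0.18, limma adjusted p = 0.0240) and the third had -0.35 (limma adjusted p = 0.0630). On the second probe every Car9-/- mouse lay below every wild-type mouse, though narrowly (9.983 the highest in Car9-/-, 9.998 the lowest in wild-type mice). The call on the brightest Synm probe was lost at adjusted p = 0.0558 to 0.0813 without any of wild-type mice 2, 5 and 6 or Car9-/- mice 1 and 4, and at 0.0931 with arrays scaled to a common median. Des, encoding desmin itself, gave 8.43, 9.01 and 9.50 in Car9-/- stomach, against 8.96, 9.34 and 10.25 in wild-type stomach, with wide overlap (log2 fold change -0.51, SE 0.24, adjusted p = 0.193). Synpo2, encoding an actin-bundling protein of the dense body, gave 7.61, 7.89 and 8.52 in Car9-/- stomach, against 7.86, 8.25 and 8.89 in wild-type stomach (log2 fold change -0.34, SE 0.19, adjusted p = 0.260).

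The plaque and adhesion genes held the only positive estimates. Vcl (vinculin) had 0.08 (adjusted p = 0.690) and Actn1 (alpha-actinin 1) 0.18 (adjusted p = 0.319), and both proteins are made in most adhering cells as well as in muscle. With arrays scaled to a common median, under which the median of all probes moved to 0.113, Actn1 had 0.40 (adjusted p = 0.0451). Flna (filamin A) had -0.17 (adjusted p = 0.145). Pgm5, encoding the vinculin-binding protein aciculin, had -0.66 (adjusted p = 0.0837). Itga8, an integrin chain of smooth muscle, and Ldb3, better known from the Z-disc of striated muscle, gave -0.05 and -0.02, but were detected on only 4 arrays each.

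The largest estimate belonged to Pln, encoding phospholamban, which restrains the calcium pump of the sarcoplasmic reticulum. Pln gave 7.41, 8.24 and 9.15 in Car9-/- stomach, against 8.94, 9.29 and 10.02 in wild-type stomach. It averaged 8.38 ± 0.66 in Car9-/- mice and 9.39 ± 0.41 in wild-type mice (SD, n = 6 each), and fell 2.02-fold (log2 fold change -1.02, SE 0.28, limma adjusted p = 0.0393). Car9-/- mouse 4 was the lowest, while Car9-/- mice 2 and 6 lay within the wild-type range. The call was lost, at adjusted p = 0.0525 to 0.0806, without any of wild-type mice 1, 3, 4, 5 and 6 or Car9-/- mice 1, 3 and 4. Kcnma1, the pore of the large calcium-activated potassium channel that dampens contraction, had -0.23 (adjusted p = 0.359), and its subunit gene Kcnmb1, detected on 3 arrays, had -0.01.

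Cav1 encodes caveolin 1, which shapes the caveolae of the muscle membrane and is also abundant in endothelium and fat. Its log2 signals in Car9-/- mice 1 to 6 were 9.42, 9.89, 10.07, 10.06, 9.66 and 10.23, against 10.76, 10.44, 10.53, 10.96, 10.45 and 10.44 in wild-type mice 1 to 6. All 6 Car9-/- values lay below all 6 wild-type values, as for 1 of the 30 genes on their brightest probes and 2.27% of all probes. The log2 fold change was -0.71 (SE 0.14, 95% interval -1.01 to -0.41, limma adjusted p = 0.0104). Unlike most of the list, Cav1 was highest in wild-type mouse 4. Endothelial markers were also lower by genotype: 3 of 8 fell (Pecam1, Emcn and Esam), where 5.25% of all probes did. The mean centred log2 signal of the 8 ran from -0.29 to -0.03 in Car9-/- mice and from 0.01 to 0.33 in wild-type mice. Adipocyte markers (3 of 8 tested) reached 2.84 and 2.57 in wild-type mice 4 and 6. The part of endothelium and fat in the Cav1 difference was not tested.

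Of the remaining genes, Hspb6, a small heat shock protein phosphorylated during relaxation, had -0.70 (SE 0.30, adjusted p = 0.155), and Hspb8, a related chaperone, had -0.74 (SE 0.27, adjusted p = 0.0971). Myocd, encoding myocardin, the SRF partner that drives the programme, had -0.21 (adjusted p = 0.383). Counting all 48 tested probes in place of 1 per gene, 7 fell and none rose, 45 had a negative log2 fold change, and Acta2 and Mylk joined the genes with a probe that passed. More than 1 probe was tested for 12 genes. Within each of these the probes shared their sign, and in 3 of them some probes passed while others did not.

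**Figure D3:**
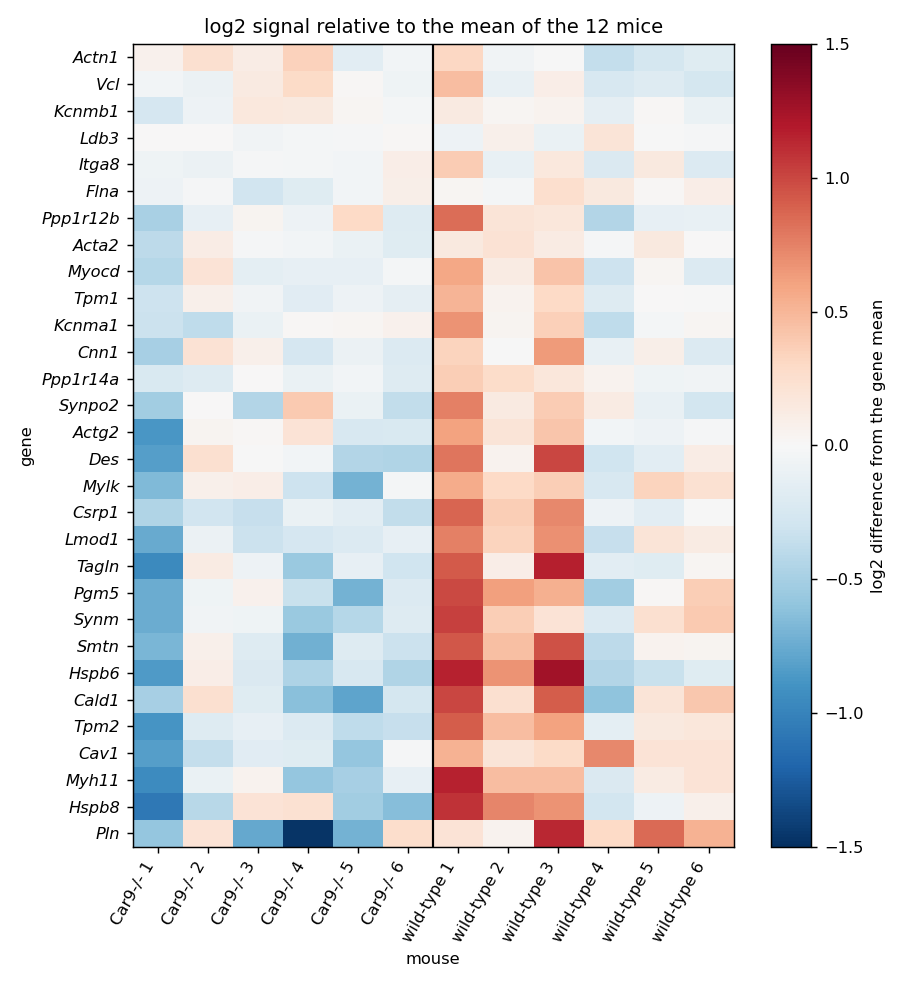
Log2 signal of the 30 genes (rows) in the 12 mice (columns, Car9-/- left and wild-type right), centred on each gene's mean over all mice, with the colour scale capped at 1.5 in either direction. Car9-/- mouse 1 is the lowest column, with the lowest value for 20 genes, and wild-type mouse 1 the highest, with the highest value for 18.

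The specimens differed in how much muscle RNA they held, within each genotype as well as between them. The muscle level, the mean over the 30 genes of the log2 signal centred on the 12 mice, was -0.53, -0.02, -0.09, -0.19, -0.24 and -0.17 in Car9-/- mice 1 to 6, against 0.63, 0.21, 0.48, -0.16, 0.03 and 0.04 in wild-type mice 1 to 6. The groups overlapped through wild-type mouse 4 alone: all 6 Car9-/- mice were below the wild-type median, and 4 of 6 below the lowest wild-type mouse. The mean was -0.206 (SD 0.178) in Car9-/- mice and 0.206 (SD 0.299) in wild-type mice, a difference of -0.41, or -0.25 with arrays scaled to a common median, under which only 1 Car9-/- mouse lay below the lowest wild-type mouse. The level is a description and was not tested. Wild-type mouse 1 held the highest value for 18 of the 30 genes and wild-type mouse 3 for 7, and Car9-/- mouse 1 held the lowest for 20. Wild-type mouse 4 was below the 12-mouse mean at 24 of the 30 genes.

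The 2 highest mice, wild-type 1 and 3, were also the youngest wild-type animals, at 10 and 8 months, and the other 4 were 12 months old. Among Car9-/- mice, those of 10 months (mice 1, 2 and 5) had levels of -0.53, -0.02 and -0.24, and those of 12 months -0.09, -0.19 and -0.17. With sex and age as covariates 7 of the 30 genes fell in place of 4, where 6.03% of all probes were lower in place of 5.25%.

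Specimens with a high and a low level of squamous epithelium RNA were set apart after the data had been seen. Among the mice with a squamous level above 0, the muscle level was -0.24 to -0.02 in 4 Car9-/- mice and 0.21 to 0.63 in 3 wild-type mice. Among those below 0, it was -0.53 and -0.17 in 2 Car9-/- mice and -0.16 to 0.04 in 3 wild-type mice. The genotypes did not overlap in either set, though in the second only narrowly. That second separation depended on the processing. With background correction Car9-/- mouse 6 stood at -0.177, above wild-type mouse 4 at -0.191. With arrays scaled to a common median the same mice stood at -0.112 and -0.268. The log2 fold change was negative for 28 of 30 genes in the first set and for 27 in the second, with medians of -0.54 and -0.35. In the first set 14 of the 30 genes had every Car9-/- mouse below every wild-type mouse, where 8.55% of all probes did so, and in the second 13 genes, where 17.9% did. No gene of the list passed the adjusted test within either set (limma; 33 and 8 of all probes passed). At an unadjusted limma p under 0.05, 20 were lower and 0 higher in the first set, and 11 lower and 1 higher in the second. The share of all probes at this threshold is not given for either set, so these counts have no baseline here.

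With the squamous level as a covariate, also chosen after the data had been seen, 13 of the 30 genes fell and none rose, where 5.1% of all probes were lower. They were Acta2, Actg2, Myh11, Smtn, Lmod1, Synm, Tpm2, Csrp1, Ppp1r14a, Cav1, Pgm5, Hspb6 and Hspb8, and the median log2 fold change was -0.51. Pln no longer passed (adjusted p = 0.0515).

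**Figure D4:**
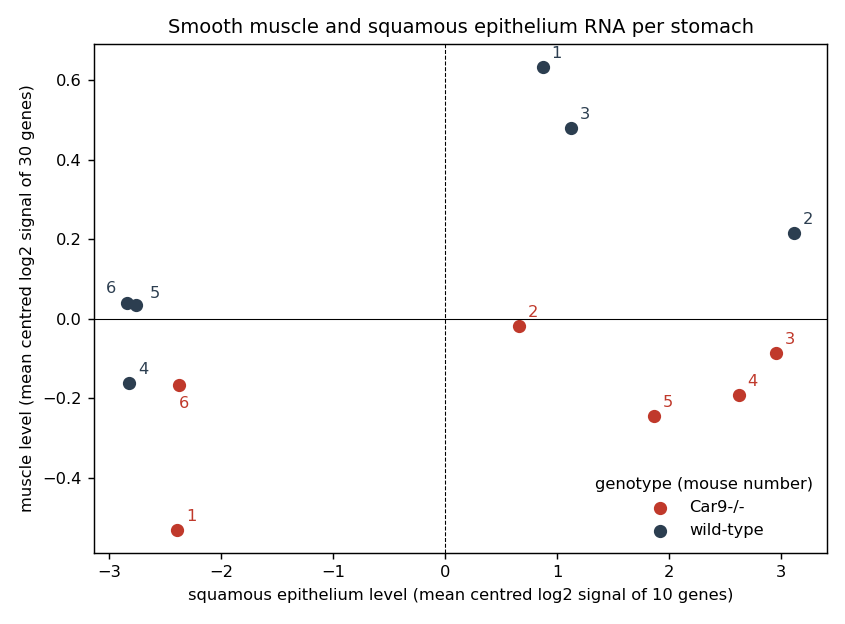
Muscle level of each mouse (y axis, mean centred log2 signal of 30 genes) against its squamous epithelium level (x axis, the same over 10 genes); numbers are mouse numbers within genotype. Right of the dashed line at 0 the 4 Car9-/- mice lie below the 3 wild-type mice. Left of it the 2 Car9-/- mice, at -0.53 and -0.17, lie below the 3 wild-type mice, the lowest of which is at -0.16. The order on the left changed with background correction and with median scaling.

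In both sexes most estimates were below 0. They were negative for 28 of the 30 genes in males and 25 in females, and the muscle level averaged -0.247 ± 0.260 in Car9-/- males against 0.229 ± 0.397 in wild-type males, and -0.166 ± 0.0786 in Car9-/- females against 0.184 ± 0.256 in wild-type females (SD, n = 3 each). No gene of the list passed the test for an interaction of genotype and sex, the lowest being Ppp1r14a at an unadjusted limma p of 0.0618 (adjusted p = 0.566). Across all probes 9.25% had an unadjusted interaction p under 0.05 and 0.0145% passed after adjustment.

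Further genes of the pathway were taken from lists set by name. Of 63 tested genes in 3 lists, 6 fell, 2 rose and 40 had a negative log2 fold change, with a median of -0.13. Over all tested probes 5.25% fell, 5.34% rose and 50.1% were negative. Among 25 tested regulators of contraction 2 fell: Gucy1a1, a subunit of the nitric oxide receptor guanylate cyclase (-0.56, SE 0.11, limma adjusted p = 0.0101), and Pde5a, the phosphodiesterase that breaks down the cyclic GMP this enzyme makes (-0.33, SE 0.09, limma adjusted p = 0.0362). Both act on cyclic GMP, a relaxing signal, but in opposite directions. The list's median was -0.23. Dimmer probes of Gucy1a1 also fell (-0.39 and -0.29), whereas the dimmer probe of Pde5a had 0.10 (limma adjusted p = 0.561). Camk2d, a calmodulin-dependent kinase, had 0.33 on its brightest probe (limma adjusted p = 0.0914). Of its dimmer probes 2 rose (0.36 and 0.38, limma adjusted p = 0.0334 and 0.0473). The other tested Camk2d probes ran from -0.04 to 0.24 and did not pass.

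Among 25 tested genes of thin filaments, dense plaques and costameres, the membrane attachments of muscle, Parva, which links integrins to actin, and Sgcb, a sarcoglycan, fell (-0.33 and -0.38, limma adjusted p = 0.0222 and 0.0259). Pxn, the focal adhesion adaptor paxillin, rose (0.33, limma adjusted p = 0.0205). The dimmer tested probes of Sgcb and Pxn had -0.10 and -0.01 (limma adjusted p = 0.298 and 0.966). The median of this list was -0.08. Tpm3, a tropomyosin gene active in most cell types, had 0.62 on its brightest probe (limma adjusted p = 0.145). Of its dimmer probes 3 rose (0.66, 0.65 and 0.44, limma adjusted p = 0.00936, 0.0244 and 0.0260), the first with every Car9-/- mouse above every wild-type mouse. The other tested Tpm3 probes had 0.20 and -0.04 and did not pass. Among 13 tested partners of SRF and myocardin, Barx1, a homeobox gene of the stomach mesenchyme, and Mef2c fell (-0.56 and -0.33, limma adjusted p = 0.0106 and 0.0257), and Klf5, a zinc finger factor also made in epithelium, rose (0.64, SE 0.09, limma adjusted p = 0.00289). A dimmer probe of Mef2c had -0.14 (limma adjusted p = 0.409). Gata6, a zinc finger factor, had 0.07 on its brightest probe (limma adjusted p = 0.682), and its dimmer probe rose (0.62, limma adjusted p = 0.0216). Srf itself had -0.34 (adjusted p = 0.0872), and the median was -0.07.

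Other cells of the muscle wall were read through their own markers. Beside the counts here and in the next paragraph, 5.25% of all tested probes fell, 5.34% rose and 50.1% had a negative estimate. At an unadjusted limma p under 0.05, 14.2% of all probes were lower and 13.2% higher. Of enteric neuron and glia genes, 6 of 12 were tested, all 6 estimates were negative and 3 fell, Uchl1, Prph and Sox10, with a median of -0.43. Of the interstitial cells of Cajal, the pacemakers of gut muscle, 4 of 5 markers were tested: Kit fell (-0.81, limma adjusted p = 0.0352) and Ano1 rose (0.56, limma adjusted p = 0.00893). All 6 markers of pericytes and vascular smooth muscle were tested, with negative estimates and none passing (3 lower and 0 higher at an unadjusted limma p under 0.05), and their mean centred signal was -0.281 to -0.000679 in Car9-/- mice and 0.03 to 0.29 in wild-type mice. None of the 7 fibroblast markers passed (0 at an unadjusted limma p under 0.05), and their median was 0.13. Striated muscle markers (9 of 15 tested, none passing, 2 lower and 1 higher at an unadjusted limma p under 0.05) had centred levels of -0.24 to 0.11 in Car9-/- mice and -0.21 to 1.09 in wild-type mice, the highest in wild-type mouse 3. Of mesothelial markers, 4 of 5 were tested, of which 3 had a negative estimate, with a median of -0.30. The gene that rose was Krt19, which epithelia also make (0.97, limma adjusted p = 0.0104).

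Lists from outside the muscle wall also had estimates below 0. All 6 parietal cell genes were negative, with a median of -0.37, and Kcnq1, a potassium channel of acid secretion, fell (-0.46, limma adjusted p = 0.0257). All 5 chief cell genes were negative, with a median of -0.36, and Bhlha15, a factor of enzyme-secreting cells, fell (-1.46, limma adjusted p = 0.0392). All 10 tested exocrine pancreas genes were negative, with a median of -2.15, and Prss1, Try4 and Amy2a5, which encode digestive enzymes, fell (-3.40, -3.60 and -3.31, limma adjusted p = 0.00338, 0.00446 and 0.00419). The mean centred signal of the pancreas genes ran from -1.59 to -0.66 in Car9-/- mice and from -0.54 to 3.45 in wild-type mice. Among 5 pit cell genes the mucin genes Muc5ac and Muc1 rose (0.43 and 0.42, limma adjusted p = 0.0193 and 0.0107), with a median of 0.02. All 10 squamous genes were positive, with a median of 1.53, and none passed (2 higher and 0 lower at an unadjusted limma p under 0.05). A median below 0 was therefore found for other tissues of these specimens as well as for smooth muscle (-0.43). The part of any of these cells, or of squamous and pancreatic tissue in the specimens, in the smooth muscle differences was not tested beyond the fits given above.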

How the data were processed

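Stomach RNA of 6 Car9-/- and 6 wild-type mice was amplified and hybridised to Illumina Sentrix Mouse-6 arrays, 1 array per mouse. The authors extracted the intensity of each probe and its detection p-value with BeadStudio, without normalization or background subtraction, and deposited both. They also deposited log2 values that they had quantile-normalized in Chipster. The intensities were here set to log2 and quantile-normalized with limma (3.58.1, R 4.3.3), and the largest gap to the deposited log2 values was 0.02237. The test took the 20751 probes that 3 or more arrays detected (detection p under 0.01), using lmFit and eBayes, Car9-/- minus wild-type, without covariates, and p-values were adjusted by Benjamini-Hochberg over all of them, at a threshold of 0.05. The interaction of genotype and sex was fitted separately. The median intensity was 83.3 to 101.4 in Car9-/- arrays and 75.65 to 89.57 in wild-type arrays, and the number of arrays limits the precision.

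Probes were named from the platform annotation, which gave 1 symbol to 32794 probes, several to 55 and none to 13794. All listed genes are accounted for: values by genotype were given for the defining contractile genes and for those that passed, estimates or ranges for the rest, and from each of the 3 pathway lists the genes that passed on their brightest probe. Dimmer probes, and passing genes of the cell type lists, were named after their values had been seen. The genes and lists were chosen with earlier results of these data known. The fits were tested on simulated data. Alternatives covered background correction (neqc, offset 16), normalization, filters, covariates, a replicate block, array weights, an intensity trend, the choice of probe and leaving out mice. Those on squamous level were added after seeing the data.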

Additional observations from a re-analysis of the deposited data

Results flagged for a closer look

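In 2 of 62 sets of 6 values checked, the lowest mouse stood apart from the other 5 of its genotype by more than the Dixon limit at the 95% level, and chance flags about 1 in 20 such sets. Both were Car9-/- mouse 1. Its Lmod1 log2 signal was 8.05, against 8.47 to 8.71 in the other Car9-/- mice, a gap of 0.648 of the group's range. Its Tpm2 log2 signal was 12.70, against 13.21 to 13.47 in the other Car9-/- mice, a gap of 0.669 of the range.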

How the results depend on the processing

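The median log2 fold change of the 30 genes (-0.43) stayed negative under every alternative run, between -0.56 and -0.28, and the muscle level difference (-0.41) between -0.58 and -0.25 on the log2 scale. With each gene divided by its SD over the mice it was -0.929, in SD units. Counts moved more. Of all probes 2197 passed, against 4011 with median scaling (89.4% of them higher, against 50.4%), 3804 with array weights, 963 without wild-type mice 4 and 6, 33 and 8 within the squamous sets above and below 0, and 1204 to 3360 with each mouse left out. The 4 listed genes that fell became 2 with all probes tested, 7 with sex and age as covariates, 9 without wild-type mice 4 and 6, 13 with the squamous covariate, 0 within either squamous set, 7 when every probe was counted, 0 after the methods' SD filter (which left 280 probes and none of these genes) and 2 to 10 with each mouse left out. None rose, but 1 did with median scaling, and 0 with any mouse left out. The 6 further genes that fell became 1 with median scaling, 11 with sex and age and 10 with the squamous covariate. Of all probes 2.05%, 6.03% and 5.1% were lower in these fits. The 6 became 0 within either set and 2 to 8 with each mouse left out, where 2.66% to 7.66% of all probes were lower. The 2 that rose became 11 with median scaling, 8 with array weights and 1 without wild-type mice 4 and 6. Of the 20751 probes 3585, 1918 and 457 were higher in these fits, against 1108 in the main fit. The 2 became 0 within either set and 2 to 6 with each mouse left out, where 653 to 1771 probes were higher. The 3 probes with an interaction of genotype and sex became 0 without wild-type mice 4 and 6 and 1 to 9 with each mouse left out.

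Replicate numbers did not pair the mice: same-numbered deviations correlated at -0.37 to 0.501, above 0.1 for 1 of 6 numbers. With the replicate number as a block, 461 probes, 0 listed genes, and 0 further genes lower and 1 higher passed; Cav1 had an adjusted p of 0.0501.

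Of the estimates that changed sign, Tpm1 was the furthest from 0 at first (-0.22, SE 0.11). With median scaling Tpm1 had 0.0147, Kcnmb1 0.0166 and Ldb3 0.00225. Without wild-type mice 4 and 6 Vcl had -0.0212 and Ldb3 0.0161. With squamous level above 0 Vcl had -0.0602 and Ldb3 0.0130, and below 0 Itga8 had 0.106. With each mouse left out Kcnmb1 ran from -0.0376 to 0.0445, Itga8 from -0.0977 to 0.0207 and Ldb3 from -0.0445 to 0.0153. The cause of these shifts was not tested. Kcnmb1, Itga8 and Ldb3 lay near background.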
